A study of Homo sapiens with 28 samples.

Results

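RSL3 was added to HT-1080 cells that also received the conjugated fatty acid CLA18:2, and the RNA of these cells was compared with that of cells given CLA18:2 alone. The comparison takes 8 of the 28 libraries of the series, chosen by their treatment labels, with 4 of 10 nM RSL3 and 80 µM CLA18:2 (written RSL3+CLA18:2) and 4 of 80 µM CLA18:2, and all genes of the count table. HT-1080 is an established human fibrosarcoma cell line, labelled wild type, and every library comes from this 1 line after an overnight incubation. The other groups used here, also of 4 libraries each, are RSL3 with 80 µM linoleic acid (RSL3+LA), LA, RSL3 and the vehicle DMSO. Replicates are described as independent, and no culture, day or batch is named for them. P values therefore measure the spread between these libraries, some of which may be technical.

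RSL3 binds and inhibits GPX4, the selenoenzyme that turns lipid hydroperoxides of membranes into alcohols. Without that activity, chains of lipid peroxidation can end in ferroptosis, a form of cell death that depends on iron. CLA18:2 carries its double bonds next to each other, whereas those of linoleic acid are kept apart by a methylene group. Oxidative and electrophilic stress is read out by well known gene programmes. NRF2 drives antioxidant and heme-degrading genes, ATF4 drives amino acid and stress genes of the integrated stress response, the unfolded protein response drives endoplasmic reticulum chaperones, and AP-1 genes such as FOS are switched on within minutes by kinase signalling.

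Library totals ran from 17731009 to 22468321 counts in RSL3+CLA18:2 and from 16226270 to 20910349 in CLA18:2. After each library was thinned to 16226270 counts, 20008 ± 1139 genes had a count in RSL3+CLA18:2 and 21765 ± 307 in CLA18:2 (SD, n = 4 each), and the ranges of 18975 to 21280 and 21531 to 22191 did not overlap (exact permutation test, two-sided, p = 0.0286, the smallest that 4 against 4 libraries allow). Replicates 3 and 4 of RSL3+CLA18:2 had the fewest detected genes, and each stood far from the other libraries on a principal component, replicate 4 on the one with 24.6% of the variance and replicate 3 on the one with 22.5%. The biological coefficient of variation was 14.2% in RSL3+CLA18:2 and 8.77% in CLA18:2. Mitochondrially encoded mRNAs took 0.640 ± 0.692% of counts in RSL3+CLA18:2, where replicate 3 held 1.68%, and 0.806 ± 0.544% in CLA18:2 (exact permutation test, two-sided, p = 0.771). The 50 most counted genes took 14 ± 0.052% of counts in RSL3+CLA18:2 and 13.7 ± 0.12% in CLA18:2 (exact permutation test, two-sided, p = 0.0286). Of 16 mesenchymal markers of a fibrosarcoma, 14 averaged at least 1 CPM over the 8 libraries, among them VIM and FN1. S100A4 and THY1 did not. Of 16 epithelial markers 5 reached that mean, KRT7, KRT8, KRT18, CLDN4 and MUC1, while CDH1, KRT20 and GRHL2 were at 0. No blood, hepatocyte or kidney marker reached it. GPX4 (chr19:1103926-1106791), the target of RSL3, had 91.3, 96.8, 72.7 and 74.4 CPM (counts relative to the TMM-adjusted library total) in RSL3+CLA18:2 and 72.0, 85.3, 81.3 and 83.9 CPM in CLA18:2. The groups overlapped, and the log2 fold change was 0.059 ± 0.088 (adjusted p = 0.75). RSL3 acts on the GPX4 protein, so this level does not check the treatment label.

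**Figure D1:**
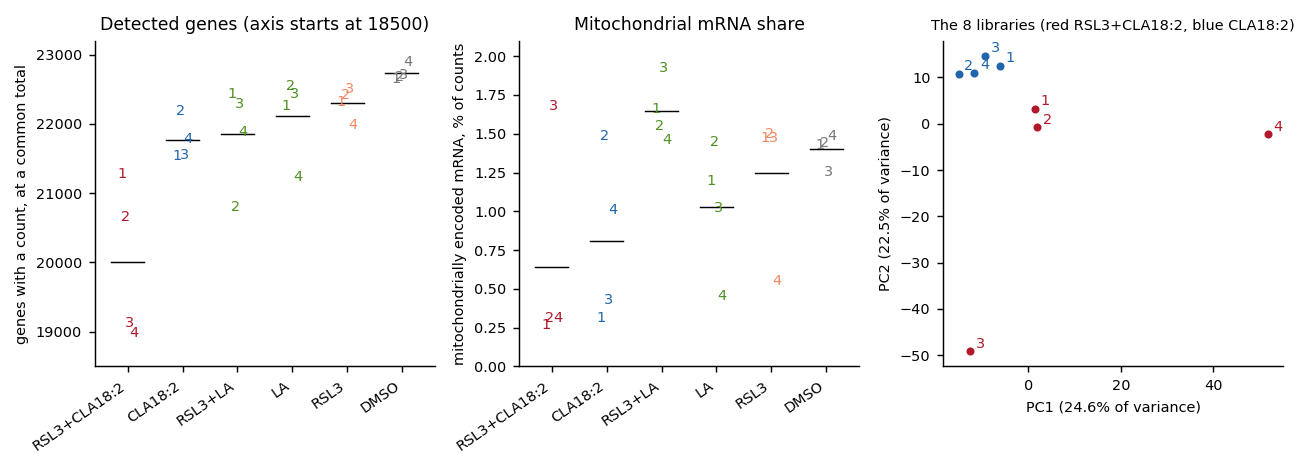
Left, genes with a count at a common total of 16226270 counts; middle, mitochondrially encoded mRNA as a percentage of counts; each digit is the replicate number of a library and the bar the group mean. Right, the 8 libraries on their principal components, where replicates 4 and 3 of RSL3+CLA18:2 lie away from the rest; detected genes fell between 18975 and 21280 in RSL3+CLA18:2 and between 21531 and 22191 in CLA18:2.

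Adding RSL3 to CLA18:2 was followed by many small changes and few large ones. Of 14684 genes tested, 1346 (9.17%) differed at an adjusted p below 0.05 (edgeR quasi-likelihood F test, Benjamini-Hochberg adjustment), 799 (5.44%) of them higher and 547 (3.73%) lower in RSL3+CLA18:2. Scaling by library totals alone, which moves the median of all genes from -0.00095 to -0.035 on the log2 scale, gave 607 higher and 806 lower, so the share of higher calls was 43% there and 59.4% with TMM scaling. The count was 773 without CLA18:2 replicate 3 and 792 without CLA18:2 replicate 2. Changes of at least 2-fold were found in 37 genes (0.252%), 13 higher and 24 lower, with 22 without CLA18:2 replicate 2, 24 without CLA18:2 replicate 3 or 4, and 57 without RSL3+CLA18:2 replicate 4. The CPM of the groups did not overlap in 742 of the 799 higher genes and 505 of the 547 lower ones, while 8.35% of all genes tested lay wholly above and 7.4% wholly below. The called higher genes had shorter transcripts, with a median longest transcript of 3181 bases, than the called lower ones at 4588, against 3612 over all genes tested. With a trend on transcript length taken out, 897 genes were higher and 648 lower. Without RSL3+CLA18:2 replicates 3 and 4, 702 were higher and 545 lower. In bulk RNA, a lower level in every cell and a loss in some cells only cannot be told apart.

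**Figure D2:**
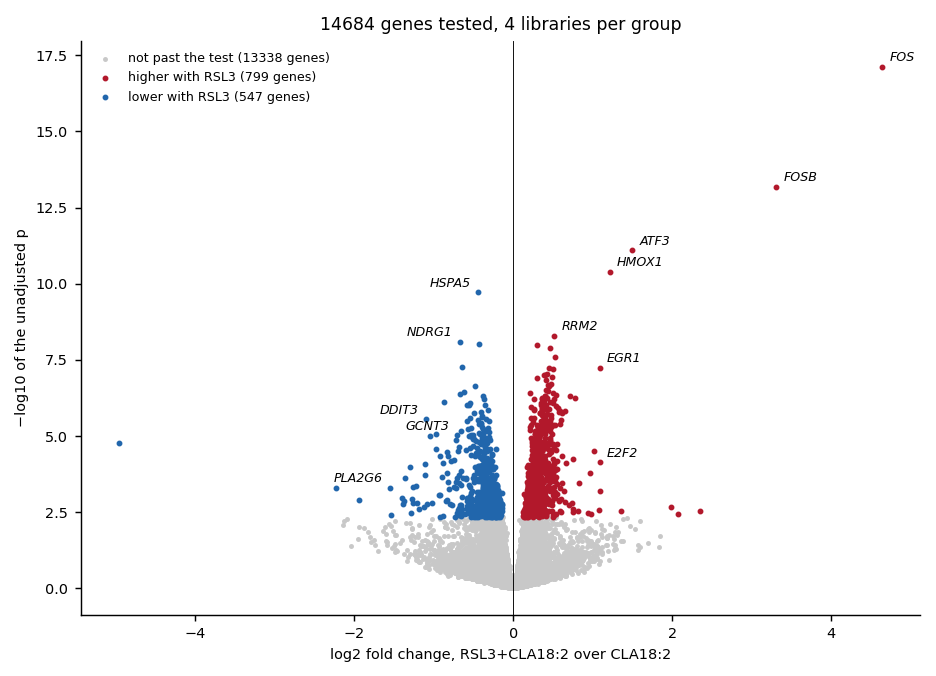
Each point is 1 of 14684 genes, with the log2 fold change of RSL3+CLA18:2 over CLA18:2 on the horizontal axis and −log10 of the unadjusted p on the vertical axis. FOS and FOSB stand apart at log2 fold changes of 4.64 and 3.31, while most of the 799 higher and 547 lower genes lie within 1 log2 unit of 0.

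The AP-1 subunit genes FOS and FOSB rose more than any other gene with a mean of at least 2 CPM, and ATF3 and EGR1 rose too. The promoters of FOS, FOSB and EGR1 are shown because these genes lead the response, as the 150 bases before the RefSeq start site on GRCh38.p14, read along the gene. Capitals in FOS and FOSB mark TGACGT, the core of the cyclic AMP response element (CRE), searched on both strands. In EGR1 they mark the same core, which reads ACGTCA on the opposite strand, and the CArG box, to which the serum response factor binds. The CArG box was also searched in FOS and FOSB and was absent from these 150 bases, and bases further upstream were not searched. FOS lies at chr14:75278678-75278827 and FOSB at chr19:45467846-45467995, with EGR1 at chr5:138465329-138465478, all on the plus strand.
FOS: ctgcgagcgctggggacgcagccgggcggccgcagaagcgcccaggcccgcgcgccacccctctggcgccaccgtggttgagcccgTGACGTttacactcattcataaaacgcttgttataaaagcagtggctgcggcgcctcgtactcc
FOSB: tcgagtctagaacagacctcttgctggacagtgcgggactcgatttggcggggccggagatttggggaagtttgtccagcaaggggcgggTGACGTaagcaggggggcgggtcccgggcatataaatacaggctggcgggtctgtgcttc
EGR1: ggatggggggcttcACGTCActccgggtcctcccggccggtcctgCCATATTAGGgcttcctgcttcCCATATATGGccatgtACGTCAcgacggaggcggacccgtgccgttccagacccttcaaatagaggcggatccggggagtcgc
The CRE core began 64 bases before the start in FOS and 60 in FOSB, and EGR1 held it at 136 and 67 bases, with CArG boxes at 105 and 83. The core was found in 6 of 11 promoters of called immediate early and AP-1 genes (54.5%) and in 9 of 26 of that list's tested members (34.6%), in 8.26% of genes tested and in 5.65% of all RefSeq promoters of that length. For the CArG box these shares were 1 of 11 (9.09%), 2 of 26 (7.69%), 0.712% and 0.765%. These matches are a description of letters, and the motifs were chosen with these promoters in view.

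FOS (chr14:75278774-75282230) had 59.6, 60.1, 67.3 and 62.3 CPM in RSL3+CLA18:2, against 2.43, 2.74, 2.69 and 2.13 CPM in CLA18:2. Every RSL3+CLA18:2 library lay far above every CLA18:2 library, a 25-fold difference with a log2 fold change of 4.64 ± 0.10 (SE, n = 4 per group, adjusted p = 1.11e-13). FOSB (chr19:45467995-45475179), which can replace FOS in the AP-1 dimer, had 39.1, 34.6, 36.6 and 44.1 CPM in RSL3+CLA18:2, against 3.15, 3.5, 4.53 and 4.60 CPM in CLA18:2. The groups again lay well apart, and the log2 fold change was 3.31 ± 0.13 (adjusted p = 4.71e-10). ATF3 (chr1:212565334-212620777), a stress-induced partner of AP-1 proteins, had 58.0, 50.3, 63.5 and 60.8 CPM in RSL3+CLA18:2 and 21.3, 19.7, 20.2 and 21.5 CPM in CLA18:2, a log2 fold change of 1.5 ± 0.081 (adjusted p = 3.79e-08). EGR1 (chr5:138465490-138469315), a zinc finger transcription factor of the same early wave, had 29.5, 27.6, 28 and 25.1 CPM in RSL3+CLA18:2 and 10.2, 13.4, 14.6 and 13.7 CPM in CLA18:2, a log2 fold change of 1.09 ± 0.11 (adjusted p = 6.06e-05). JUN, the usual partner of FOS, was already abundant and rose by only 0.21 ± 0.050, to 384 ± 20.1 CPM in RSL3+CLA18:2 against 334 ± 10.7 CPM in CLA18:2 (adjusted p = 0.0154). Leaving out RSL3+CLA18:2 replicate 1, or blocking on the replicate number, ended the call of JUN. Of 33 tested members of the immediate early and AP-1 list, 13 rose and none fell, by 0.21 to 4.64, and the list median was 0.21 against -0.00095 over all genes. This count and those of the lists that follow are to be read against the 5.44% of all genes tested that were higher and the 3.73% that were lower. Without RSL3+CLA18:2 replicates 3 and 4, 9 members rose and 1 fell, and with library totals alone 12 rose and 3 fell.

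**Figure D3:**
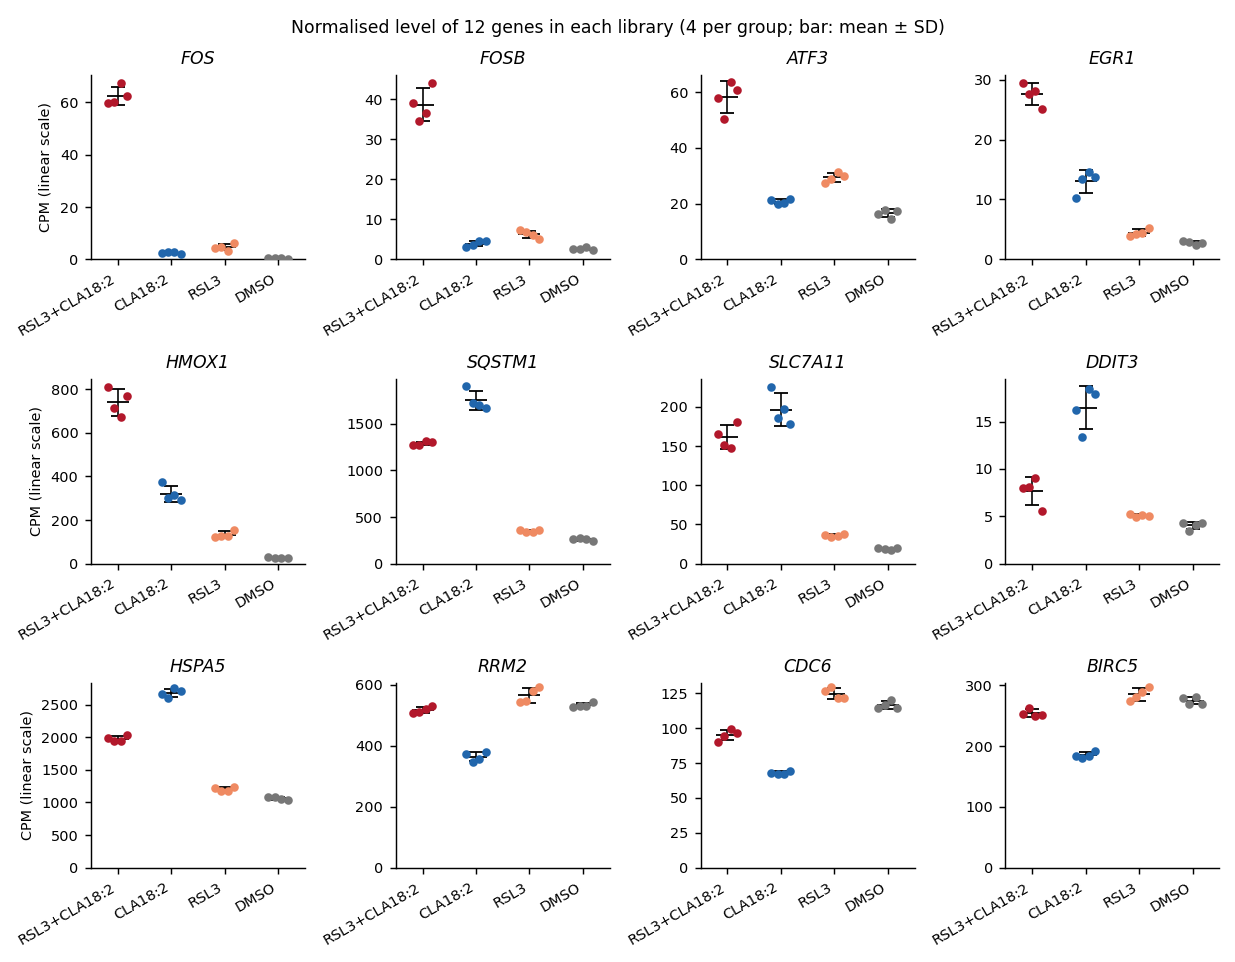
Normalised level (CPM) of 12 genes in RSL3+CLA18:2, CLA18:2, RSL3 and DMSO libraries, with 1 point per library and the mean ± SD in black. FOS, FOSB, ATF3, EGR1 and HMOX1 were higher in RSL3+CLA18:2 than in CLA18:2, SQSTM1, DDIT3 and HSPA5 were lower, and RRM2, CDC6 and BIRC5 were higher.

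Most called NRF2 targets fell, while HMOX1 and GCLM rose. HMOX1 (chr22:35380361-35394214), which degrades heme and releases its iron, had 810.0, 713, 671 and 770.5 CPM in RSL3+CLA18:2, against 374, 303, 314 and 291 CPM in CLA18:2. All RSL3+CLA18:2 libraries were above all CLA18:2 libraries, and the log2 fold change was 1.22 ± 0.074 (adjusted p = 1.46e-07). GCLM, the modifier subunit of the enzyme that starts glutathione synthesis, had 278, 291, 303 and 288 CPM in RSL3+CLA18:2 and 261, 234, 234 and 232 CPM in CLA18:2, a rise of 0.28 ± 0.050 (adjusted p = 0.00239). The other called members fell. SQSTM1 (chr5:179806398-179838078), the p62 receptor that delivers cargo to autophagy, had 1277, 1276, 1311 and 1304 CPM in RSL3+CLA18:2, against 1903, 1726, 1706 and 1675 CPM in CLA18:2, a log2 fold change of -0.43 ± 0.039 (adjusted p = 1.61e-05). FTL, the light chain of the iron store ferritin, had 1593, 1596, 1567 and 1592 CPM in RSL3+CLA18:2 and 2180.3, 1889.6, 1885 and 1895 CPM in CLA18:2 (-0.30 ± 0.042, adjusted p = 0.000474). The RSL3+CLA18:2 libraries of both genes lay below all CLA18:2 libraries and close to each other. AKR1C1, an aldo-keto reductase that reduces reactive carbonyls, had 4.60, 4.47, 5.44 and 5.17 CPM in RSL3+CLA18:2 and 8.69, 8.17, 9.80 and 8.54 CPM in CLA18:2 (-0.83 ± 0.14, adjusted p = 0.00183). Reads of AKR1C1 can be shared with its near-identical paralogs, so its level is uncertain. BLVRB, which reduces biliverdin, fell by 0.43 on the log2 scale, and the pseudogene NMRAL2P fell by 0.51. In all, 2 of 36 tested members rose, a share near that of all genes, and 6 fell, and the median was -0.087, beside -0.00095 over all genes. NQO1 (0.091 ± 0.053, adjusted p = 0.34), TXNRD1 (-0.12 ± 0.046, adjusted p = 0.119) and OSGIN1 (-0.14 ± 0.067, adjusted p = 0.213) did not pass the test.

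Genes that set ferroptosis sensitivity changed in both directions, HMOX1 (a driver here) and AKR1C1 (a suppressor) among them. SLC7A11, the cystine importer that feeds glutathione synthesis, had 165, 151, 148 and 181 CPM in RSL3+CLA18:2 and 226, 186, 197 and 178 CPM in CLA18:2. The ranges met, between replicate 4 of each group, and the fall of -0.28 ± 0.074 (adjusted p = 0.0268) was past the threshold with all 8 libraries and not without any single one of CLA18:2 replicates 1 and 3 and RSL3+CLA18:2 replicates 2 and 3 (adjusted p up to 0.0872). Its partner chain SLC3A2 fell to 281 ± 21.7 CPM in RSL3+CLA18:2, against 333 ± 16.5 CPM in CLA18:2 (-0.24 ± 0.059, adjusted p = 0.0179), a call that also ended without CLA18:2 replicate 2, 3 or 4. CISD2, an iron-sulfur protein, rose by 0.26 ± 0.063 (adjusted p = 0.0175), and that call ended without CLA18:2 replicate 2 or 3. The glutathione-degrading enzyme gene CHAC1 had 5.23, 6.25, 6.54 and 4.86 CPM in RSL3+CLA18:2 and 9.64, 9.40, 7.72 and 7.50 CPM in CLA18:2 (-0.58 ± 0.15, adjusted p = 0.0277), and this low gene lost its call without CLA18:2 replicate 1 or 2 or RSL3+CLA18:2 replicate 1 or 4. Of 25 tested suppressors of ferroptosis 2 rose and 3 fell, with a median of 0.059, and of 26 drivers 3 rose and 3 fell, with a median of 0.0033. These counts are small and unstable. No suppressor rose without CLA18:2 replicate 2 or 3 or with the replicate block, 1 rose without RSL3+CLA18:2 replicate 2, and 1 fell without CLA18:2 replicate 3. Of the drivers 1 fell without CLA18:2 replicate 2, and none fell in the 5 libraries with under 0.5% mitochondrial mRNA. AIFM2, the coenzyme Q reductase FSP1, had a log2 fold change of -0.092 ± 0.081 (adjusted p = 0.547). Values for ACSL4, which activates polyunsaturated fatty acids, and for the transferrin receptor gene TFRC were 0.14 ± 0.058 and -0.0089 ± 0.045 (adjusted p = 0.172 and 0.938). PTGS2, often read as a marker of ferroptosis, averaged 11.8 ± 0.830 CPM in RSL3+CLA18:2 and 13.7 ± 1.48 CPM in CLA18:2 (adjusted p = 0.279). PLA2G6, a calcium-independent phospholipase, was among the largest falls, with 1.32, 1.29, 1.42 and 0.360 CPM in RSL3+CLA18:2 and 3.01, 3.97, 2.88 and 3.01 CPM in CLA18:2 (-1.55 ± 0.35, adjusted p = 0.0115). Its counts are low, replicate 4 of RSL3+CLA18:2 was lowest, and without CLA18:2 replicate 2 the adjusted p did not pass.

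Of 32 tested genes of the integrated stress response 11 fell, and the 2 that rose were ATF3 and PPP1R15A, which are also immediate early genes. DDIT3 (chr12:57516588-57521737), which encodes CHOP, had 7.99, 8.13, 9.06 and 5.53 CPM in RSL3+CLA18:2, against 16.2, 13.4, 18.4 and 17.9 CPM in CLA18:2. The ranges were apart, and the log2 fold change was -1.09 ± 0.15 (adjusted p = 0.000452). DDIT4, an inhibitor of mTORC1, had 9.83, 8.62, 9.61 and 8.14 CPM in RSL3+CLA18:2 and 14.2, 14.9, 13.3 and 15.8 CPM in CLA18:2 (-0.68 ± 0.11, adjusted p = 0.00151). SESN2, another stress-induced inhibitor of mTORC1, had 45.4, 39.9, 39.8 and 45.2 CPM in RSL3+CLA18:2 and 67.7, 59.2, 61.0 and 62.0 CPM in CLA18:2 (-0.55 ± 0.070, adjusted p = 0.00026). No library of either gene crossed into the range of the other group. The secreted stress protein gene GDF15 fell by 0.40 on the log2 scale to 446 ± 41.8 CPM in RSL3+CLA18:2, against 592 ± 10.3 CPM in CLA18:2, and the pseudokinase gene TRIB3 fell by 0.30. ATF4 itself, which is regulated mainly at translation, had 447 ± 11.9 CPM in RSL3+CLA18:2 and 432 ± 8.50 CPM in CLA18:2 (adjusted p = 0.463). The list median was -0.20, beside -0.00095 over all genes. The number lower was 9 without RSL3+CLA18:2 replicates 3 and 4, and 6 in the 5 libraries with under 0.5% mitochondrial mRNA.

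Genes of the unfolded protein response of the endoplasmic reticulum also fell, or did not pass the test. HSPA5 (chr9:125234853-125241330), which encodes BiP, the main chaperone of that compartment, had 1983, 1936, 1943 and 2030.0 CPM in RSL3+CLA18:2, against 2660.5, 2607, 2745 and 2705 CPM in CLA18:2. The libraries of each group lay close together, and the log2 fold change of -0.44 ± 0.030 had the smallest p of any lower gene (adjusted p = 5.52e-07). Its promoter is shown with the endoplasmic reticulum stress element (ERSE, CCAAT and CCACG with 9 bases between them) in capitals. The 150 bases before the RefSeq start lie at chr9:125241344-125241493 on the minus strand of GRCh38.p14.
HSPA5: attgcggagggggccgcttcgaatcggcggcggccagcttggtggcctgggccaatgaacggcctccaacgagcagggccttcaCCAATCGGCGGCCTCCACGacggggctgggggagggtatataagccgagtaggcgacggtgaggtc
An ERSE was present in 0.0549% of all RefSeq promoters of this length, in 0.077% of genes tested and in 4 of 25 tested members of the unfolded protein response list (16%). Among the 9 called members, HSPA5 was the only 1 that held it (11.1%). HERPUD1, a component of endoplasmic reticulum associated degradation, had 111, 111, 119 and 111 CPM in RSL3+CLA18:2 and 154, 140.1, 136 and 142 CPM in CLA18:2 (-0.34 ± 0.050, adjusted p = 0.000675). The chaperone gene HYOU1 fell by 0.34 and WFS1, which encodes a membrane protein of the compartment, by 0.33. Of 27 tested members 9 fell and none rose, by 0.14 to 0.44 on the log2 scale, and the median was -0.082. Blocking on the replicate number left 6.

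Cytosolic chaperones split. HSPA8, the constitutive heat shock cognate, rose by 0.22 ± 0.026 to 4637 ± 62.3 CPM in RSL3+CLA18:2, against 4002 ± 135 CPM in CLA18:2 (adjusted p = 0.000191), and the mitochondrial chaperonin gene HSPD1 rose by 0.19 ± 0.039. HSPA6, a strictly inducible member of the HSP70 family, had 4.26, 3.55, 4.48 and 3.73 CPM in RSL3+CLA18:2 and 6.44, 8.41, 8.82 and 7.83 CPM in CLA18:2 (-0.97 ± 0.16, adjusted p = 0.00166). Of 23 tested members 3 rose and 2 fell, with a median of 0.023, and 1 fell without any single library other than CLA18:2 replicate 2 or RSL3+CLA18:2 replicate 3. Of 43 lysosome and autophagy genes 10 fell and 2 rose, with a median of -0.097. The share that rose was near that of all genes, with 1 without CLA18:2 replicate 2 or 4 and none without CLA18:2 replicate 3. Those that fell included SQSTM1, the saposin precursor gene PSAP (-0.22 ± 0.037, adjusted p = 0.00162), the cholesterol exporter gene NPC1 (-0.26 ± 0.046, adjusted p = 0.00229) and WIPI1, which acts in autophagosome formation (-0.70 ± 0.12, adjusted p = 0.00175). The number lower was 11 without RSL3+CLA18:2 replicates 3 and 4, and 4 in the 5 libraries with under 0.5% mitochondrial mRNA.

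Genes of cell division rose together. Of 35 tested mitotic genes 32 rose and none fell, by 0.30 to 0.59, with a median of 0.38. Of 47 DNA replication and G1/S genes 38 rose and 1, the repressor gene E2F7, fell, with a median of 0.35. These shares are to be read against 5.44% of all genes tested being higher. The median over mitotic genes, taken against the CLA18:2 mean, was 0.34, 0.34, 0.38 and 0.41 in the RSL3+CLA18:2 libraries and between -0.036 and 0.049 in the CLA18:2 libraries. RRM2 (chr2:10120698-10131419), a subunit of ribonucleotide reductase, had 508, 509, 519 and 529 CPM in RSL3+CLA18:2, against 371, 346, 356 and 379 CPM in CLA18:2 (0.51 ± 0.044, adjusted p = 1.24e-05). CDC6, which loads the replicative helicase at origins, had 90.4, 94.3, 99.3 and 96.7 CPM in RSL3+CLA18:2 and 67.8, 66.9, 67.1 and 69.5 CPM in CLA18:2 (0.50 ± 0.051, adjusted p = 6.19e-05). Neither gene had overlapping groups. BIRC5, which encodes survivin, had 254, 263, 249 and 251 CPM in RSL3+CLA18:2 and 184, 180.1, 183 and 192 CPM in CLA18:2 (0.47 ± 0.043, adjusted p = 1.93e-05). CCNB1, the mitotic cyclin B1 gene, had 258, 260.0, 263 and 238 CPM in RSL3+CLA18:2 and 201, 200.1, 204 and 205 CPM in CLA18:2 (0.34 ± 0.045, adjusted p = 0.000336). The spindle assembly factor gene TPX2 rose by 0.40, the kinase gene CDK1 by 0.45, the cyclin gene CCNA2 by 0.41, the flap endonuclease gene FEN1 by 0.42 and the helicase subunit gene MCM4 by 0.39. E2F2, a transcription factor of the G1/S transition, had the largest rise of the list, with 5.64, 7.59, 6.27 and 10.1 CPM in RSL3+CLA18:2 and 3.96, 2.88, 3.67 and 3.5 CPM in CLA18:2 (1.09 ± 0.20, adjusted p = 0.00324). The number of DNA replication genes higher was 29 without RSL3+CLA18:2 replicates 3 and 4 and 21 in the 5 libraries with under 0.5% mitochondrial mRNA, and for mitotic genes it was 31 and 23.

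CDC6 in every RSL3+CLA18:2 library was below its level in every RSL3 and DMSO library, while RRM2 in RSL3+CLA18:2 was below RSL3 and overlapped DMSO. RRM2 averaged 516 ± 9.97 CPM in RSL3+CLA18:2, 363 ± 14.8 CPM in CLA18:2, 565 ± 24.6 CPM in RSL3 and 532 ± 7.04 CPM in DMSO (SD, n = 4 each). CDC6 averaged 95.2 ± 3.79, 67.8 ± 1.17, 125 ± 3.95 and 117 ± 2.63 CPM in the same groups. Any comparison of CLA18:2 with DMSO shares the CLA18:2 libraries, so the DMSO values stand here without a test. The promoters of CDC6 at chr17:40287729-40287878, on the plus strand, and of E2F2 at chr1:23531234-23531383, on the minus strand, are shown as examples of the list, with the E2F motif TTTGGCG in capitals.
CDC6: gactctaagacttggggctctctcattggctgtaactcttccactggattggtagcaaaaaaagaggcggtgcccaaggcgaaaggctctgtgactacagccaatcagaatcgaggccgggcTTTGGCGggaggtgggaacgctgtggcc
E2F2: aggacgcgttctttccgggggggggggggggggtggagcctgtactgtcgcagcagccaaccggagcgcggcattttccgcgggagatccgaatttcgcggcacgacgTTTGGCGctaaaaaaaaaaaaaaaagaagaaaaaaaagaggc
This motif, searched on both strands, was present in 7 of 30 promoters of called DNA replication and G1/S genes (23.3%), in 9 of 38 of that list's tested members (23.7%), in 1.55% of genes tested and in 1.04% of all RefSeq promoters of that length.

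Ribosomal protein genes and cytoskeletal genes rose by small amounts, where they passed the test. Of 78 cytosolic ribosomal protein genes 23 rose and none fell, by 0.14 to 0.31, with a median of 0.14. RPLP2, an acidic protein of the ribosomal stalk, had 948, 1003, 905 and 895 CPM in RSL3+CLA18:2 and 738, 724, 774 and 811 CPM in CLA18:2 (0.31 ± 0.048, adjusted p = 0.000994), and RPL21, RPL19 and RPL29 rose by 0.29, 0.24 and 0.24. The list median varied between RSL3+CLA18:2 libraries, from 0.0073 in replicate 4 to 0.20 in replicates 1 and 2, and between CLA18:2 libraries, from -0.12 to 0.095. The count was 10 to 15 without any 1 of CLA18:2 replicates 1, 2 and 3 and RSL3+CLA18:2 replicates 1 and 2, 37 without RSL3+CLA18:2 replicates 3 and 4, 15 with library totals alone and 8 in the 5 libraries with under 0.5% mitochondrial mRNA. These genes have many near-identical pseudogenes, which can take part of their reads. Of 28 YAP and SRF targets 9 rose, by 0.21 to 0.33, and 1 fell, with a median of 0.13. The 1 that fell was the kinase gene NUAK2, a low-count gene at -0.92 ± 0.28 (adjusted p = 0.0486), whose call ended without any single library other than CLA18:2 replicate 2. The cytoplasmic actin gene ACTB had 9562, 9510.1, 8969.6 and 9229 CPM in RSL3+CLA18:2 and 7568, 7312, 7587 and 7967 CPM in CLA18:2 (0.30 ± 0.027, adjusted p = 1.61e-05). ACTG1 rose by 0.22, the tropomyosin gene TPM1 by 0.27 and the calponin gene CNN2 by 0.30.

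Matrix and signalling genes moved individually. THBS1, which encodes the matrix protein thrombospondin 1, had 1771, 1745, 1722 and 1883 CPM in RSL3+CLA18:2 and 1268, 1209, 1377 and 1391 CPM in CLA18:2 (0.45 ± 0.046, adjusted p = 6.06e-05), both far below the 5207 ± 294 CPM of RSL3 and 5319 ± 276 CPM of DMSO. The type I collagen genes COL1A1 (-0.40 ± 0.066, adjusted p = 0.00124) and COL1A2 (-0.39 ± 0.069, adjusted p = 0.00249) fell, while the protease inhibitor gene TIMP1 rose by 0.27 ± 0.055. Of 37 collagen and matrix genes 3 rose and 2 fell, shares near those of all genes, with a median of -0.012. NFKBIA, which encodes the inhibitor of NF-kappaB, had 43.8, 42.3, 51.6 and 42.7 CPM in RSL3+CLA18:2 and 24.9, 26.1, 29.3 and 29.8 CPM in CLA18:2 (0.72 ± 0.087, adjusted p = 0.000204). NFKB2 fell by 0.37, and the cytokine genes CXCL3 and IL11 rose by 0.55 and 0.28. The interleukin 8 gene CXCL8 did not pass the test (-0.30 ± 0.10, adjusted p = 0.074), though it was called lower under 6 of 21 other settings. Of 25 NF-kappaB and cytokine genes 3 rose and 2 fell, with a median of -0.17, and 1 fell without CLA18:2 replicate 3 or 4. Of the 24 TGF-beta pathway genes 3 rose, among them the endothelin gene EDN1 (0.75 ± 0.14, adjusted p = 0.00278), and 2 fell, the signal transducer gene SMAD3 by 0.39 and the latency protein gene LTBP2 by 0.30. Without CLA18:2 replicate 3 or 4, 1 of these genes rose.

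Of 28 p53 targets 4 fell and 2 rose, with a median of -0.11. The share that rose was near that of all genes, with none without any 1 CLA18:2 library and 1 without RSL3+CLA18:2 replicate 1, 2 or 3, and 7 fell with library totals alone. CDKN1A, which encodes the cell cycle inhibitor p21, had 613, 589, 553 and 573 CPM in RSL3+CLA18:2 and 724, 721, 741 and 738 CPM in CLA18:2 (-0.32 ± 0.042, adjusted p = 0.000314). MDM2, which marks p53 for degradation, fell by 0.37, and TP53INP1 fell by 0.52. NDRG1, a gene induced by hypoxia and other stress, had 130.2, 125, 134 and 131 CPM in RSL3+CLA18:2 and 231, 214, 198 and 187 CPM in CLA18:2 (-0.67 ± 0.059, adjusted p = 1.61e-05). Of 35 hypoxia and glycolysis genes 4 fell and 3 rose, the lactate dehydrogenase gene LDHA by 0.21, with a median of 0.015. Few genes of lipid synthesis and storage passed the test. Of 25 cholesterol synthesis genes 3 rose, including FDPS (0.33 ± 0.070) and INSIG1 (0.23 ± 0.063, lost under 10 of 21 other settings), and 1 fell. Only 1 rose without CLA18:2 replicate 2 or 4 or RSL3+CLA18:2 replicate 2, and none fell without any single library other than RSL3+CLA18:2 replicate 4. SCD, the desaturase that makes monounsaturated fatty acids, averaged 148 ± 4.26 CPM in RSL3+CLA18:2 and 141 ± 3.93 CPM in CLA18:2 (adjusted p = 0.343), and HMGCS1 of the sterol pathway averaged 81.7 ± 4.26 and 85.8 ± 4.47 CPM (adjusted p = 0.54). None of 19 lipid droplet genes passed the test.

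**Figure D4:**
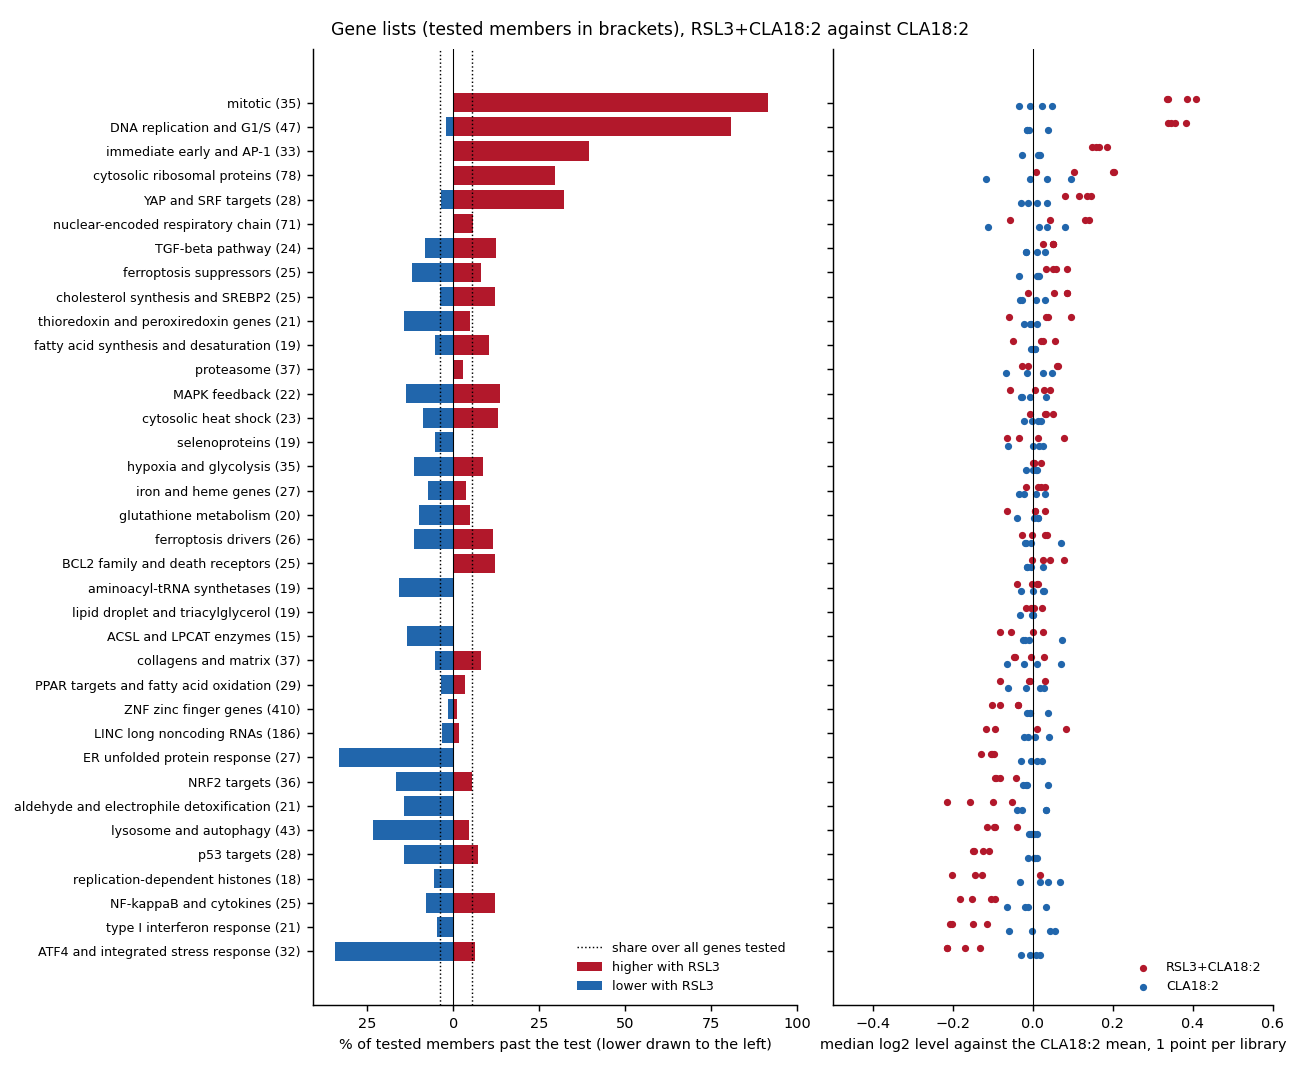
Left, the percentage of each list's tested members past the test, higher in RSL3+CLA18:2 to the right and lower to the left, with dotted lines at 5.44% and 3.73%, the shares over all genes tested. Right, the median log2 level of each list against the CLA18:2 mean, with 1 point per library; mitotic and DNA replication genes lie apart in all 8 libraries, while ribosomal protein genes overlap.

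Among other genes with a mean of at least 2 CPM and groups that did not overlap, the largest changes were in low-count genes. SLC8A1, a sodium-calcium exchanger gene, averaged 7.36 ± 1.31 CPM in RSL3+CLA18:2 and 3.65 ± 0.326 CPM in CLA18:2 (1.02 ± 0.17, adjusted p = 0.00175). The long noncoding RNA UCA1 averaged 8.18 ± 0.970 CPM in RSL3+CLA18:2 and 4.64 ± 1.05 CPM in CLA18:2 (0.83 ± 0.18, adjusted p = 0.00918). On the lower side, LCTL, of the lactase-like glycosidase family, had 3.51, 3.39, 3.02 and 3.64 CPM in RSL3+CLA18:2 and 7.54, 6.19, 7.10 and 7.34 CPM in CLA18:2 (-1.05 ± 0.16, adjusted p = 0.000872). CORO6, a coronin gene, averaged 1.43 ± 0.425 CPM in RSL3+CLA18:2 and 3.67 ± 0.813 CPM in CLA18:2 (-1.36 ± 0.28, adjusted p = 0.00688). TCP11L2 (-1.30 ± 0.25), ACBD4 (-1.26 ± 0.28), GAB3, an adaptor protein gene (-1.11 ± 0.23), and YPEL2 (-0.97 ± 0.15) were also lower, all at mean levels under 10 CPM in both groups. GCNT3, a glycosyltransferase gene of mucin-type glycans, averaged 12.8 ± 1.54 CPM in RSL3+CLA18:2 and 21.1 ± 1.95 CPM in CLA18:2 (-0.71 ± 0.11, adjusted p = 0.000867), and 0.649 ± 0.203 CPM in RSL3 and 0.146 ± 0.0878 CPM in DMSO.

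Whether RSL3 acted differently with CLA18:2 than without a fatty acid was tested as the difference of the responses, (RSL3+CLA18:2 against CLA18:2) minus (RSL3 against DMSO), over 16 libraries. The difference passed the test in 689 of 15536 genes (4.43%), 337 (2.17%) with a positive and 352 (2.27%) with a negative difference. The RSL3 response alone held 42 called genes of 14718 (0.285%), 26 (0.177%) higher and 16 (0.109%) lower. FOSB responded more with CLA18:2, by 2.07 ± 0.20 (SE, adjusted p = 1.21e-06), as did FOS (1.41 ± 0.34, adjusted p = 0.0185) and ATF3 (0.66 ± 0.11, adjusted p = 0.00126). RSL3 alone raised FOS to 4.64 ± 1.16 CPM, against 0.477 ± 0.213 CPM in DMSO. FOS counts in DMSO were low, at 0.167 to 0.630 CPM, so the size of its difference is uncertain. For EGR1 the difference was 0.41 ± 0.18 and did not pass (adjusted p = 0.232). HMOX1 rose in both settings, by a smaller fold with CLA18:2 but from a higher level. RSL3 alone gave a log2 fold change of 2.29 (132 ± 15.4 CPM in RSL3, 26.9 ± 2.22 CPM in DMSO). With CLA18:2 it was 1.22 (741 ± 61.2 CPM in RSL3+CLA18:2, 321 ± 37.1 CPM in CLA18:2), a difference of -1.09 ± 0.12 (adjusted p = 7.89e-06). Several genes went opposite ways. SLC7A11 had log2 fold changes of -0.28 with CLA18:2 and 0.92 without (difference -1.22 ± 0.11, adjusted p = 4.94e-07). SQSTM1 had -0.43 with CLA18:2 and 0.42 without (difference -0.87 ± 0.059, adjusted p = 1.59e-08). FTL, NDRG1, DDIT4, HSPA6, AKR1C1 and NMRAL2P likewise rose with RSL3 alone and fell when it was added to CLA18:2, with log2 differences of -0.65, -1.01, -2.26, -2.96, -2.98 and -1.98. The last 3 had low counts in DMSO. Several of these genes still had higher levels in RSL3+CLA18:2 than in RSL3, which was not tested. SQSTM1 averaged 1292 CPM in RSL3+CLA18:2, 1753 CPM in CLA18:2, 350 CPM in RSL3 and 260 CPM in DMSO. SLC7A11 averaged 161, 197, 35.6 and 18.7 CPM in the same groups, and FTL 1587, 1963, 735 and 578 CPM. HSPA6 went the other way, averaging 4.01 CPM in RSL3+CLA18:2 against 6.26 CPM in RSL3. DDIT4 averaged 9.05 and 9.82 CPM in these groups, and its ranges of 8.14 to 9.83 and 9.05 to 10.2 CPM overlapped. Of the NRF2 targets none had a positive and 16 a negative difference, while 11 rose and none fell with RSL3 alone. Of the unfolded protein response genes 12 had a negative difference, HSPA5 among them (-0.61 ± 0.043, adjusted p = 1.97e-08), and none passed with RSL3 alone. HSPA5 averaged 1973 CPM in RSL3+CLA18:2, 2679 CPM in CLA18:2, 1200 CPM in RSL3 and 1067 CPM in DMSO. For DDIT3 these means were 7.68, 16.5, 5.10 and 4.02 CPM. Of the mitotic genes 24 and of the DNA replication genes 26 had a positive difference, as in RRM2 (0.42 ± 0.055, adjusted p = 0.000102), and none of either list passed with RSL3 alone, with list medians of 0.047 in both.

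The same test against the isomer linoleic acid, with (RSL3+LA against LA) as the other response, passed in 541 of 15678 genes (3.45%), 341 (2.18%) positive and 200 (1.28%) negative. That count was 259 without RSL3+LA replicate 1, 279 without CLA18:2 replicate 2, 286 without LA replicate 3, and 327 to 343 without LA replicate 1 or 4 or CLA18:2 replicate 3. RSL3 on top of LA changed 9 of 14822 genes (0.0607%), 7 (0.0472%) higher and 2 (0.0135%) lower. FOS differed by 1.94 ± 0.32 (adjusted p = 0.00209), since RSL3 raised it to 4.46 ± 1.29 CPM in RSL3+LA against 0.672 ± 0.262 CPM in LA. Its LA level was also low, at 0.475 to 1.06 CPM. FOSB differed by 1.87 ± 0.24 (adjusted p = 0.00023). ATF3 differed by 1.02 ± 0.13 (adjusted p = 0.00023) and EGR1 by 0.87 ± 0.20 (adjusted p = 0.013). The HMOX1 responses, 1.22 with CLA18:2 and 0.86 with LA, did not pass (difference 0.36 ± 0.15, adjusted p = 0.208), which does not show that they were alike. Negative differences passed for SQSTM1 (-0.62), FTL (-0.50), DDIT3 (-1.19), SESN2 (-0.53), HSPA5 (-0.41), HERPUD1 (-0.47), HSPA6 (-1.62) and NDRG1 (-0.71). Those of DDIT4 (-0.65, adjusted p = 0.142), AKR1C1 (-0.76, adjusted p = 0.146) and CHAC1 (-0.48, adjusted p = 0.357) did not. Of the mitotic genes 29 and of the DNA replication genes 23 had a positive difference, with RRM2 at 0.45 ± 0.067 (adjusted p = 0.00104) and CDC6 at 0.47 ± 0.062 (adjusted p = 0.00023). THBS1 differed by 0.61 ± 0.10 and NFKBIA by 0.59 ± 0.11. GPX4 did not pass in any of the 3 settings, with log2 fold changes of 0.059 with CLA18:2, 0.014 with LA and -0.013 without a fatty acid. Both tests use the RSL3+CLA18:2 and CLA18:2 libraries, so their results are not independent of each other.

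**Figure D5:**
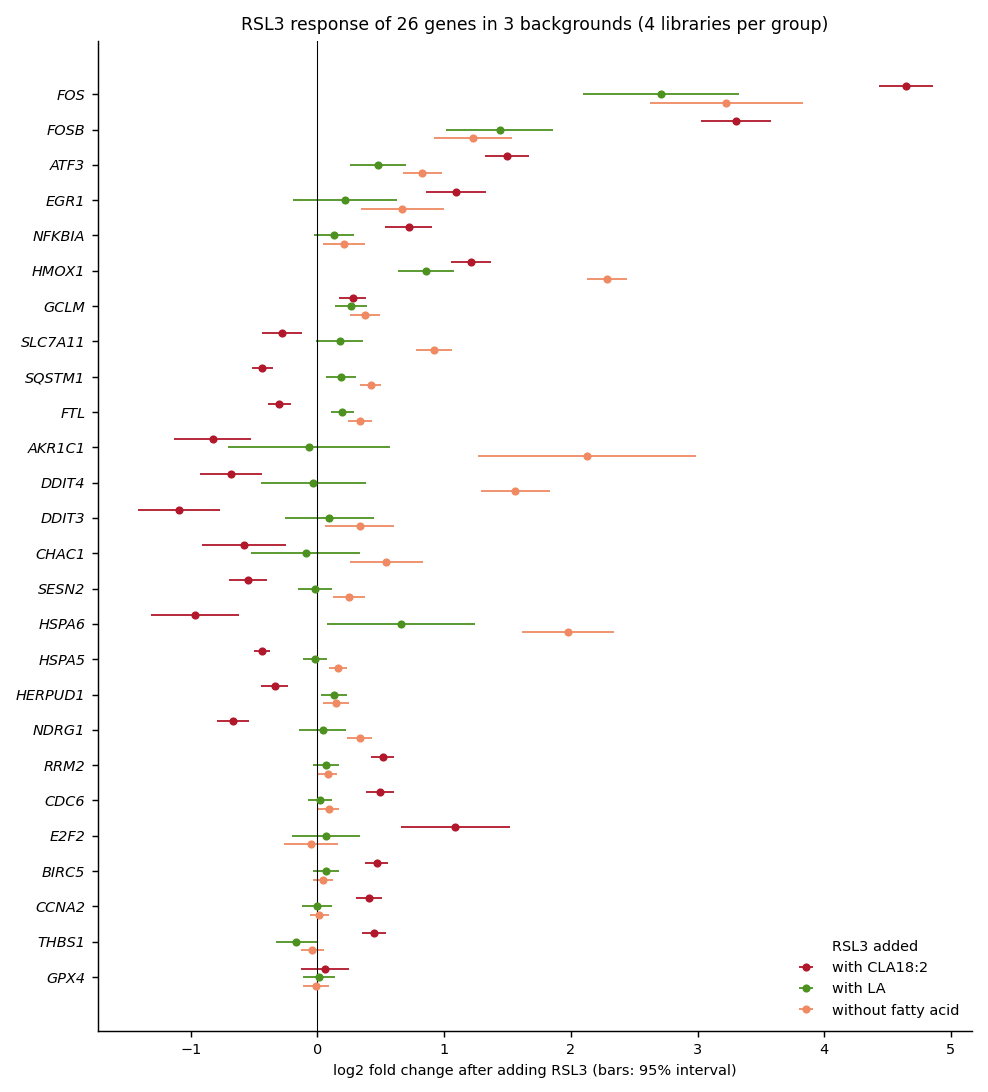
Log2 fold change after adding RSL3, with its 95% interval, for 26 genes with CLA18:2 (RSL3+CLA18:2 over CLA18:2), with LA (RSL3+LA over LA) and without a fatty acid (RSL3 over DMSO). FOS, FOSB and ATF3 lie furthest right with CLA18:2, SQSTM1, FTL, DDIT4 and HSPA5 lie left of 0 there, and RRM2, CDC6 and BIRC5 lie further right there than in the other settings.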

How the data were processed

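Total RNA of HT-1080 cells was sequenced as paired reads on an Illumina instrument, per the labels' protocols. The deposited table holds raw gene counts, made by the authors with HISAT, SAMtools and featureCounts on the build hg38 and used with DESeq2, per the submitters' processing notes. Versions, annotation and strand setting are not given in the sources used here, so reads of overlapping or antisense genes may be counted together. The design text gives fatty acid doses in µM and the sample labels in mM, and µM is used here.

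Genes were tested with edgeR 4.0.16 in R 4.3.3 on the 8 compared libraries only, because RSL3+CLA18:2 was known to vary more than most groups. Its default filter kept 14684 of 60286 genes, which held at least 99.8% of each library's counts. Counts were scaled by trimmed means of M values (TMM), and p-values of its quasi-likelihood F test were adjusted by Benjamini-Hochberg over all genes tested, with a threshold of 0.05. The response differences were fitted on their own 16 libraries. These fits pool RSL3+CLA18:2 with groups that varied less, such as DMSO with a biological coefficient of variation of 4.46%. Their p values could therefore be too small. Limma voom with 1 variance per group gave 652 genes against no fatty acid and 514 against LA. Differences of single genes were not rerun under other settings. Printed CPM use TMM factors over all 28 libraries, so a fold between them can differ slightly from the fitted log2 fold change. SEs were obtained by dividing each absolute log2 fold change by the root of its F statistic, and intervals are at 95%. Counting depth limits genes of a few CPM.

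The comparison, gene lists and named genes were chosen with earlier results of these data known, so no count over a list is independent support, and 1 list of histone genes was rewritten in the table's symbols after the data were seen. Named genes are fixed genes, the 12 largest changes each way with groups apart and a mean of at least 2 CPM, up to 4 called members of each list, and 5 each way for each response difference. E2F7, PPP1R15A, NUAK2 and the genes of the closing observations were named after their values were seen. Gene positions are from GENCODE 29 on GRCh38, and promoters are RefSeq sequences of GRCh38.p14. Other settings were other scalings, filters and tools (DESeq2 1.42.0, limma 3.58.1), all 28 libraries, a replicate block and each library left out, and 3 more chosen after seeing the data. Figures were drawn with matplotlib 3.10.9.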

Additional observations from a re-analysis of the deposited data

Results flagged for a closer look

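In 8 of 70 checked groups of 4 libraries, 1 library lay further from the others than Dixon's 95% limit allows, which chance does in about 1 of 20 groups. In RSL3+CLA18:2, replicate 3 was the one apart for the mitochondrial mRNA share (1.68%, others 0.263% to 0.313%), FTL (1567 CPM, others 1592 to 1596), HERPUD1 (118.8 CPM, others 110.8 to 111.2) and NFKBIA (51.6 CPM, others 42.3 to 43.8). Replicate 4 was apart for PLA2G6 (0.360 CPM, others 1.29 to 1.42). In CLA18:2, replicate 1 was apart for GCLM (261 CPM, others 232 to 234) and FTL (2180.3 CPM, others 1885 to 1895), and replicate 2 for PLA2G6 (3.97 CPM, others 2.88 to 3.01).

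The response to RSL3 differed between settings by a test of the difference itself in 689 genes against no fatty acid and in 541 against LA (edgeR quasi-likelihood F test, adjusted). Of 29 genes whose differences are described, 27 passed against no fatty acid and 24 against LA, beside 4.43% and 3.45% of all genes tested. These genes were chosen with results of these data known, in part because they passed these tests. The 2 counts are therefore no support for the differences. In log2 units, with CLA18:2 minus without fatty acid and then with CLA18:2 minus with LA, the AP-1 genes differed by 1.41 and 1.94 (FOS), 2.07 and 1.87 (FOSB) and 0.66 and 1.02 (ATF3), while EGR1 passed against LA alone, at 0.87. HMOX1 passed against no fatty acid, at -1.09. The NRF2 targets SQSTM1 (-0.87 and -0.62), FTL (-0.65 and -0.50), SLC7A11 (-1.22 and -0.45) and NMRAL2P (-1.98 and -1.29) passed in both, as did GCNT3 (-2.81 and -2.50). GCNT3 averaged only 0.146 CPM in DMSO, 0.649 CPM in RSL3, 0.214 CPM in LA and 0.734 CPM in RSL3+LA. The filter left it out of the RSL3 comparisons without fatty acid and with LA. It entered these tests through its level with CLA18:2, so its differences are uncertain. AKR1C1 (-2.98), DDIT4 (-2.26) and CHAC1 (-1.13) passed against no fatty acid. The stress genes DDIT3 (-1.44 and -1.19), SESN2 (-0.81 and -0.53), HSPA5 (-0.61 and -0.41), HERPUD1 (-0.50 and -0.47), HSPA6 (-2.96 and -1.62) and NDRG1 (-1.01 and -0.71) were negative in both. The p53 targets CDKN1A (-0.24 and -0.26) and MDM2 (-0.35 and -0.31) were negative too. Positive in both were BIRC5 (0.41 and 0.40), RRM2 (0.42 and 0.45), CDC6 (0.39 and 0.47), E2F2 (1.13 and 1.02), CCNA2 (0.38 and 0.42), THBS1 (0.47 and 0.61) and NFKBIA (0.50 and 0.59). Both columns of differences share the RSL3+CLA18:2 and CLA18:2 libraries.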

How the results depend on the processing

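The 77 named genes past the test kept their direction under the other settings run for each, 20 for PLA2G6 and ACBD4 and 21 for the rest, and 55 of them also kept their call. The 5 libraries with under 0.5% mitochondrial mRNA, 3 of RSL3+CLA18:2 and 2 of CLA18:2, ended 20 of these calls, more than any other setting, with fewer libraries by construction. That setting gave 439 called genes, 267 higher and 172 lower, with 16 at least 2-fold. It was chosen after seeing the data, like the transcript length trend and the fit without RSL3+CLA18:2 replicates 3 and 4, which left 61 genes at least 2-fold changed. All 28 libraries in the fit gave 856 lower genes and 92 of at least 2-fold, no filter on low counts 82 of at least 2-fold, and DESeq2 19. DESeq2 gave 1062 and 815 genes for the response differences against no fatty acid and against LA. Of 12 named genes not past the test, 3 passed it under some other setting, CXCL8 under 6, TXNRD1 under 2 and OSGIN1 under 1. The cause of these shifts was not tested.

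With 1 library left out at a time, the called genes numbered 773 to 1408, of which 479 to 782 higher and 294 to 626 lower, with 22 to 57 at least 2-fold. The response differences passed in 464 to 878 genes against no fatty acid and in 259 to 564 against LA. The difference in detected genes ranged from -2181 to -1413 and in the share of the 50 most counted genes from 0.265 to 0.358 percentage points, with exact p up to 0.0571 in both, and the difference in mitochondrial mRNA share ranged from -0.512 to 0.0596. GPX4 and TFRC, both not past the test, changed sign. GPX4 ranged from -0.019 without RSL3+CLA18:2 replicate 2 to 0.12, and TFRC from -0.042 to 0.023. TFRC was positive without CLA18:2 replicate 1 or RSL3+CLA18:2 replicate 1 or 2 and, at 0.011, with the length trend. Over all settings run, GPX4 reached 0.22 and TFRC -0.061.

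Same-numbered libraries did not deviate together, with correlations of -0.126, -0.057, -0.191 and -0.220 over 10343 genes, and the main fit used no pairing. With 4 libraries per group, these values cannot exclude that same-numbered libraries were prepared together. With a replicate block, 785 genes were called, 490 higher and 295 lower, and 22 were at least 2-fold changed. The block gave 640 and 502 genes for the response differences against no fatty acid and against LA, and ended 5 calls of named genes.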

Other observations

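Several further lists had few called members, beside 5.44% of all genes tested higher and 3.73% lower. Of 19 aminoacyl-tRNA synthetase genes 3 fell, of 37 proteasome genes 1 rose, and of 71 nuclear genes of the respiratory chain 4 rose, with list medians of -0.0015, 0.029 and 0.066. Of 21 interferon response genes 1 fell, of 18 replication-dependent histone genes 1 fell, and of 410 ZNF zinc finger genes 4 rose and 6 fell. The medians of these lists were -0.17, -0.12 and -0.061. Only 5 of the 21 interferon response genes had a log2 fold change above 0. None of 13 mitochondrially encoded mRNAs passed the edgeR test, while 11 were called lower with no filter on low counts, and their levels varied between libraries, with the median against the CLA18:2 mean at 1.43 in RSL3+CLA18:2 replicate 3 and between -1.29 and -1.07 in the other 3.

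Some genes varied widely within RSL3+CLA18:2. HRAS had 59.3, 28.1, 10.2 and 3.37 CPM in RSL3+CLA18:2 and 11.4, 2.88, 2.76 and 2.35 CPM in CLA18:2, and it passed the test (2.34 ± 0.66, adjusted p = 0.0361) although the groups overlapped. EIF3CL had 51.6 CPM in RSL3+CLA18:2 replicate 2 and 5.90 to 6.90 CPM in the other 3, with 6.54 to 8.10 CPM in CLA18:2. YWHAE had 126.2 CPM in RSL3+CLA18:2 replicate 1 and 24 to 27.6 CPM in the other 3, with 22.4 to 27.9 CPM in CLA18:2. NOMO1 had 22 CPM in RSL3+CLA18:2 replicate 4 and 1.83 to 2.65 CPM in the other 3, with 1.48 to 7.83 CPM in CLA18:2. EIF3CL and NOMO1 have near-identical copies, so their levels are uncertain.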
